A study of Homo sapiens with 2 samples.

Results

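The genes described here are 9 transcription factors that set or mark the lineage of esophageal adenocarcinoma, namely KLF5, GATA4, GATA6, HNF4A, ELF3, EHF, SOX9, CDX1 and CDX2. Their IGF2BP3 binding sites were taken as every LACE-seq peak that overlapped the span of one of these genes on either strand, in the GENCODE 44 annotation of hg38. This gave 19 of 21142 peaks in replicate 1 and 21 of 20799 peaks in replicate 2. Of the 9 genes, 8 held peaks in each replicate, and CDX1 held none.

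The data come from OE-19, an established cell line of adenocarcinoma of the esophagogastric junction, grown without any treatment named in the labels. Both samples belong to a single group and are labelled replicates 1 and 2. In LACE-seq (linear amplification of cDNA ends), UV light first fixes RNA to the proteins it touches, an antibody, here against IGF2BP3, then pulls down the complexes, and the RNA is fragmented before the ends of its cDNA are amplified and sequenced. As no input, IgG or knockdown library was analysed here, the replicates are compared with each other and the members with all peaks and genes, and the part that mRNA level plays in a peak was not tested. The labels do not say whether the replicates came from separate cultures, so differences between them may be technical.

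Lineage transcription factors bind the enhancers and promoters of the genes that give a tissue its identity, and several of them bind each other's genes as well. The esophagus is normally lined by squamous cells, whereas adenocarcinomas of its lower end and of the junction with the stomach carry the columnar programme of stomach and intestine, in which GATA4, GATA6, HNF4A, KLF5 and CDX2 are known regulators. IGF2BP3 is an RNA-binding protein of fetal tissues and many cancers, and is known as a reader of N6-methyladenosine (m6A) that stabilises bound mRNAs. A peak on one of these genes is a place where the RNA, not the protein or the chromatin, was recovered with IGF2BP3.

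The cell type was checked against marker genes. Of 12 epithelial markers, 11 had an overlapping pair of peaks, which is a peak in each replicate that shares at least 1 bp with the other, and the remaining one, KRT7, had no peak. Of 12 markers of lymphocytes, endothelium, fibroblasts and muscle, 0 had such a pair and 10 had no peak in either replicate. Each peak carries a fold enrichment from the authors' caller, which fits the reads at the summit plus 1 over the local background plus 1, so that it is below the plain ratio where reads are few. It had a median of 6.89 over all peaks in replicate 1 and 7.13 in replicate 2. The number of reads at each summit was recovered from the deposited fold and p-value and had a median of 22 in both replicates.

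All 8 genes with peaks had at least 1 overlapping pair, and there were 14 such pairs in all. Among all 20046 protein-coding genes, 41% had a peak in replicate 1, 42.2% in replicate 2, 34.7% in both and 30.5% an overlapping pair. Of the 6961 with a peak in both, 6124 had an overlapping pair, so most genes with peaks in both lists have one. KLF5 had 4 peaks in replicate 1 and 3 in replicate 2, GATA6 had 3 and 4, and HNF4A and SOX9 had 3 in each. These 4 genes therefore had 3 or more peaks in both replicates, as did 10.1% of protein-coding genes. EHF had 3 and 2 peaks, GATA4, ELF3 and CDX2 had 1 and 2 each. Of the member peaks, 14 of 19 in replicate 1 (73.7%, 95% Wilson interval 51.2 to 88.2) and 14 of 21 in replicate 2 (66.7%, 45.4 to 82.8) overlapped a peak of the other list. Over all peaks these shares were 60.1% and 61.2%, inside both intervals.

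**Figure D1:**
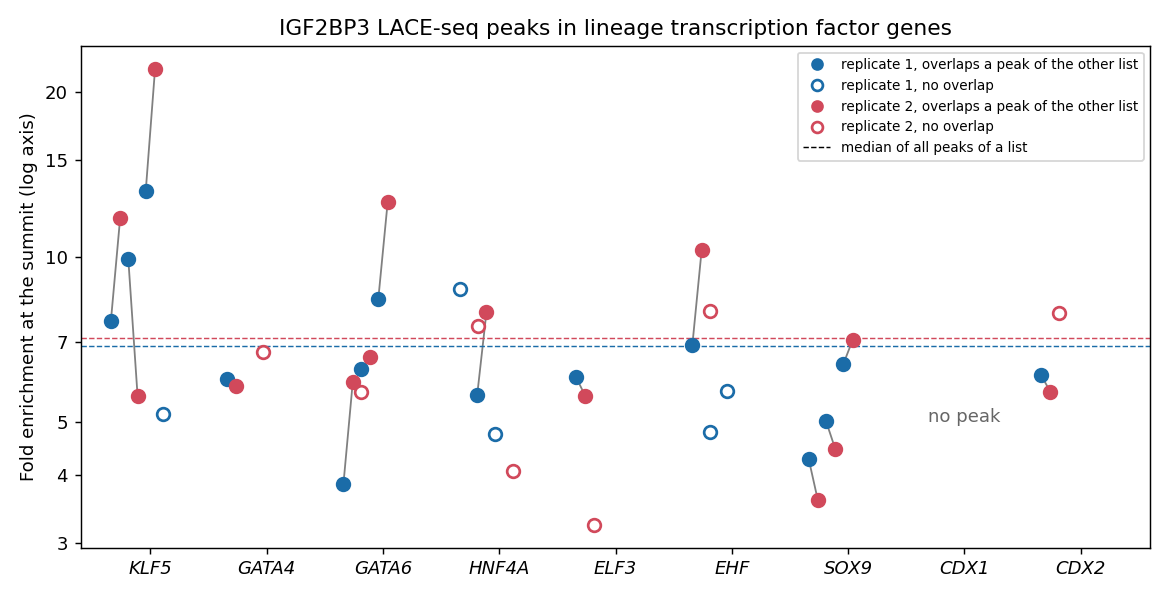
Fold enrichment at the summit (log axis) of every peak in the 9 genes, in blue for replicate 1 and red for replicate 2. Filled points overlap a peak of the other replicate, grey lines join the 14 overlapping pairs, and the dashed lines are the medians of all peaks, 6.89 and 7.13. The highest points are those of KLF5, at 13.2 and 22.1, the SOX9 points lie below the medians, and CDX1 has none.

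KLF5, a zinc finger factor of proliferating gut epithelium, had the peak with the highest fold and the one with the most reads among the 9 genes, in both replicates. The gene lies on chr13:73054976-73077541, plus strand, and has 4 exons in its canonical transcript. Its peak with the largest fold lay at the start of the last exon, at chr13:73075478-73076256 in replicate 1 and chr13:73075473-73075926 in replicate 2. The fold was 13.2 in replicate 1 and 22.1 in replicate 2 (mean 17.6 ± 6.25, SD, n = 2), with 114 and 117 reads at the summit. These folds stood at percentiles 96.0 and 99.9 of their lists. The summits were 5 bp apart and lay in the intron, 11 and 16 nt before exon 4, while the peaks reached 549 and 219 nt into that exon. The exonic part began at codon 399 of 457 and covered the stop codon in both replicates. Exon 4 encodes the second and the third of the KLF5 zinc fingers, which the translated sequence places at residues 405 to 427 and 435 to 455, and the first finger, at residues 375 to 397, is encoded before it.

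The other KLF5 pairs lay in exons 1 and 2. The pair in exon 1, over the 5′ UTR, had folds of 7.64 in replicate 1 and 11.8 in replicate 2, with 78 and 112 reads at summits 18 bp apart. Its summit reads did not pass the exact binomial test of a difference between replicates (adjusted p = 0.084 over 12401 pairs). This test compares the 2 read numbers with the ratio of summit reads summed over all these pairs, not with sequencing depth. In replicate 2 the peak ran on over the start codon to codon 65, and in replicate 1 it ended before the start codon. The pair in exon 2, which encodes most of the protein before the zinc fingers, had folds of 9.90 and 5.57 and 102 and 53 reads. These reads differed by the exact binomial test (ratio of replicate 2 to replicate 1 of 0.522, adjusted p = 0.00311), and the summits were 349 bp apart within 787 shared bp. A further peak of replicate 1 in the 3′ UTR, 824 nt after the last coding base, had a fold of 5.17 and 44 reads, and no counterpart in replicate 2.

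The sequences around the KLF5 summits are shown because they hold the strongest pair and the pair whose summits moved. Windows of 101 nt are printed 5′ to 3′ on the gene strand of hg38, with GGAC, the core of the m6A consensus, and CACA, a motif known from studies of IGF2BP proteins, in capitals. The first crosses from the intron into exon 4, with a single CACA at the border, and the exon 2 windows of the replicates hold neither motif.
KLF5 exon 4, replicate 1, chr13:73075647-73075747: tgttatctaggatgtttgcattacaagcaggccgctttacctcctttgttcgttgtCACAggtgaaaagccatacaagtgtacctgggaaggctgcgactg
KLF5 exon 2, replicate 1, chr13:73062218-73062318: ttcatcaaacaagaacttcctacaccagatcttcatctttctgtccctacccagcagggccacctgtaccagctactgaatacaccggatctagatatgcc
KLF5 exon 2, replicate 2, chr13:73061869-73061969: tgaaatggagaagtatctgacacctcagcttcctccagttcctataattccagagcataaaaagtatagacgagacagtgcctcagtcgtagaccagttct

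**Figure D2:**
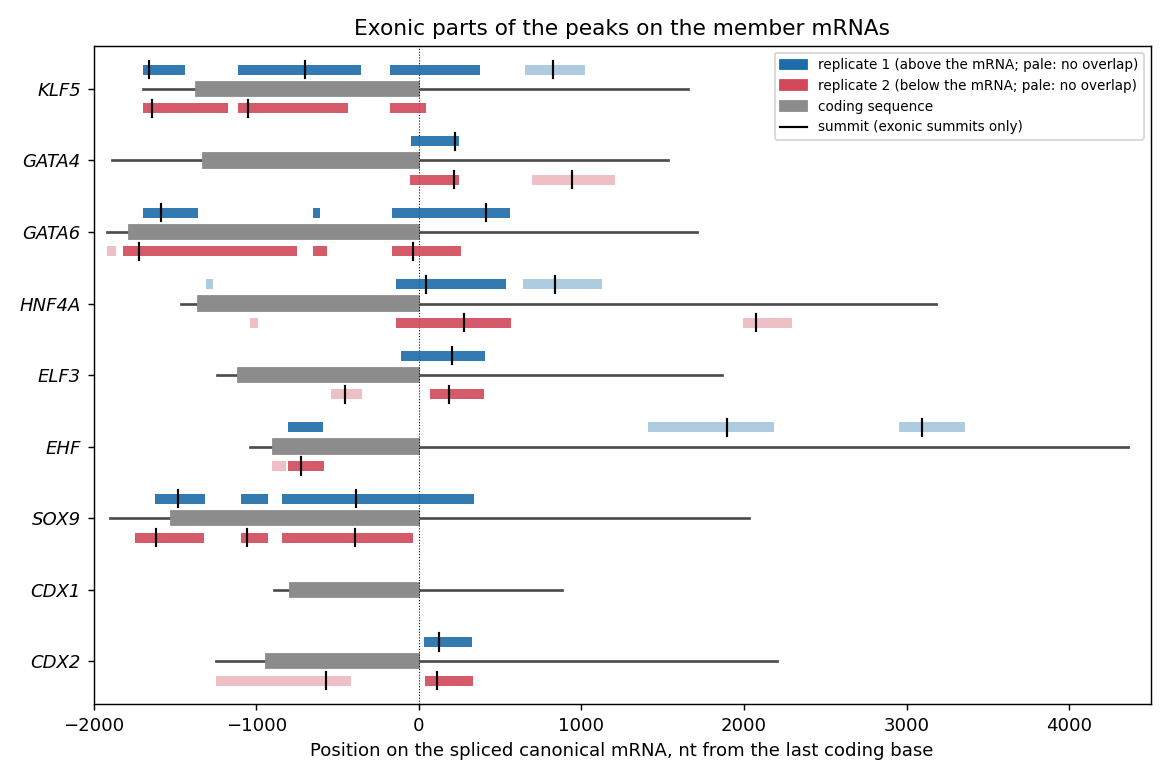
Exonic parts of the peaks on the spliced canonical mRNA of each gene, in nt from the last coding base, with the coding sequence as a grey box, replicate 1 in blue above and replicate 2 in red below. Black ticks are exonic summits, pale bars are peaks with no overlap in the other replicate, and intronic parts are not drawn. Peaks of both replicates cross position 0 in KLF5, GATA4, GATA6 and HNF4A, a peak of replicate 1 alone does so in ELF3 and SOX9, and none does in EHF, CDX1 or CDX2.

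GATA6, a zinc finger factor of endoderm that is amplified in some of these tumours, had an overlapping pair in each of exons 2, 3 and 7 of its 7 exons (chr18:22169589-22202528, plus strand). The pair over the stop codon had the largest fold, 8.39 in replicate 1 and 12.6 in replicate 2 (mean 10.5 ± 2.96, SD, n = 2), with 45 and 50 reads that did not pass the exact binomial test (adjusted p = 0.849). Both peaks covered codons 541 to 595 and the beginning of the 3′ UTR, but the summits were 449 bp apart, at 414 nt after the last coding base in replicate 1 and 35 nt before it in replicate 2. An unnamed antisense lncRNA gene overlaps both of these peaks, and since the peaks have no strand, reads of the 2 genes cannot be told apart.

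GATA4, the paralog of GATA6 in foregut endoderm, had few reads under its peaks. Its single pair lay in the last of 7 exons (gene at chr8:11676959-11760002, plus strand) and was nearly the same in both replicates, with folds of 5.99 and 5.82, 12 reads in each and summits 6 bp apart. Like the stop codon peaks of KLF5 and GATA6 it covered the stop codon, beginning at codon 427 in replicate 1 and 426 in replicate 2 of 443, after both zinc fingers (residues 218 to 242 and 272 to 296). Its summits were 220 and 214 nt after the last coding base. Replicate 2 had a second 3′ UTR peak, of fold 6.71 and 14 reads, 940 nt after the last coding base.

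The GATA6 pair in exon 2, the exon with the start codon, differed between replicates. The fold was 3.85 in replicate 1 and 5.91 in replicate 2, with 12 and 36 reads (ratio 3.01, adjusted p = 0.00878, exact binomial test). The peak of replicate 1 covered codons 29 to 143, and that of replicate 2 covered the start codon and codons 1 to 345, with summits 134 bp apart. The pair at exon 3 was smaller, with folds of 6.23 and 6.56 and 14 and 21 reads, and its summits lay 105 and 112 nt before the exon. Its exonic part began at codon 379 and ended at codon 392 or 408, at the first GATA zinc finger (residues 390 to 414). Replicate 2 also had a peak of fold 5.67 and 35 reads at the transcription start, of which 54 bp lay in GATA6. Its summit lay upstream of the gene, in an intron of the lncRNA gene GATA6-AS1 on the other strand, and is counted below as outside the member genes and not among their introns.

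HNF4A, a nuclear receptor of liver, intestine and intestinal metaplasia, had 3 peaks in each replicate but only 1 pair (gene at chr20:44355699-44432845, plus strand, 10 exons). The pair lay over the stop codon in the last exon, from codon 406 of 452 into the 3′ UTR in both replicates, and shared 709 bp. Its fold was 5.60 in replicate 1 and 7.94 in replicate 2 (mean 6.77 ± 1.65, SD, n = 2), with 31 and 48 reads (adjusted p = 0.216, exact binomial test). The summits were 235 bp apart, 46 and 281 nt after the last coding base. The unpaired peaks of replicate 1 were at exon 2 (fold 8.75, 18 reads) and in the 3′ UTR (4.75, 26 reads). Those of replicate 2 were at exon 4 (7.49, 12 reads) and in the 3′ UTR (4.07, 24 reads). The peaks at exons 2 and 4 were mostly intronic, with summits 108 and 184 nt before the exon and 42 and 46 exonic bp. The summits of the pair are shown as 30 nt of 3′ UTR each, to let the 2 places be compared, and neither stretch holds GGAC or CACA. The full window of 101 nt in replicate 2 holds GGAC at 2 places, the nearest 29 nt after the summit, and that of replicate 1 holds neither motif.
HNF4A, replicate 1, chr20:44429694-44429723: ggctccccccagccccctaagagagcacct
HNF4A, replicate 2, chr20:44429929-44429958: accttcaccttcatccatgtccaacccccg

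ELF3 and EHF are ETS factors restricted to epithelia, and their peaks lay in different places. The pair of ELF3 (chr1:202007945-202017183, plus strand) was in the 3′ UTR of its last exon, with folds of 6.04 in replicate 1 and 5.57 in replicate 2, 39 and 56 reads (adjusted p = 0.271, exact binomial test) and summits 14 bp apart, 202 and 188 nt after the last coding base. The peak of replicate 1 also covered the stop codon and that of replicate 2 began after it. Replicate 2 had another peak over exons 5 to 7, with the lowest fold of all member peaks, 3.24, from 34 reads over a local background of 9.79 reads. A lncRNA gene on the same strand overlaps all ELF3 peaks, and reads of the 2 genes cannot be told apart.

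The pair of EHF (chr11:34621093-34663288, plus strand) covered exon 3 of 9, codons 33 to 104 or 105 of 300, and not the stop codon. Its fold was 6.90 in replicate 1 and 10.3 in replicate 2, with 16 and 25 reads (adjusted p = 0.416, exact binomial test). The summits were 130 bp apart, 55 nt before the exon in replicate 1 and inside it in replicate 2. EHF has the longest 3′ UTR of the 9 canonical transcripts, 4360 nt, and in replicate 1 it held 2 peaks, 1898 and 3093 nt after the last coding base, of folds 4.80 and 5.69 and 46 and 53 reads. Neither had a counterpart in replicate 2, which had a peak of fold 7.98 and 18 reads at exon 2 and the start codon instead. The summit of that peak lay in the intron, 95 nt before exon 2. The window around the exon 3 summit of replicate 2 is shown because it holds GGAC at 2 places. That of replicate 1, around the intronic summit of the same pair, holds neither GGAC nor CACA. With GGAC in capitals the window of replicate 2 reads as follows.
EHF exon 3, replicate 2, chr11:34646464-34646564: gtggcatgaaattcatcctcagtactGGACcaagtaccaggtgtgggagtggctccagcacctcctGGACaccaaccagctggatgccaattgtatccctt

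SOX9, an HMG box factor of progenitor cells in gut crypts and ducts, combined many reads with low folds. Its 3 pairs lay on each of its 3 exons (chr17:72121020-72126416, plus strand). The pair over the start codon in exon 1 had folds of 4.28 in replicate 1 and 3.60 in replicate 2, with 56 and 49 reads. The pair at exon 2 had folds of 5.01 and 4.46, with 66 and 61 reads. The pair in exon 3, over codons 229 to 509 in replicate 1 and 229 to 497 in replicate 2, had folds of 6.39 and 7.06, with 84 and 97 reads and summits 3 bp apart. None of the 3 pairs differed between replicates by the exact binomial test (adjusted p = 0.815, 0.914 and 0.629). The reads placed these 6 peaks between percentiles 84.4 and 97.6 of their lists and the folds between 2.80 and 48.9. The local background of all 6 peaks was 12.3 to 12.9 reads, against medians of 2.05 and 1.79 over all peaks of the 2 lists. Both SOX9-AS1 and another lncRNA gene span SOX9 on the minus strand, and reads from the 2 strands cannot be told apart here.

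The window at the exon 3 summit of SOX9 is shown because it holds CACA 4 times, in capitals, and no GGAC.
SOX9 exon 3, replicate 1, chr17:72123947-72124047: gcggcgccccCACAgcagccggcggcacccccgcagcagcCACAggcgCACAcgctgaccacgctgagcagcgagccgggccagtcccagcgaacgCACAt

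CDX1 and CDX2 are homeobox factors of the intestine, and of the 2 only CDX2 had peaks. CDX2 (chr13:27960918-27969315, minus strand, 3 exons) had 1 pair in the 3′ UTR, beginning shortly after the stop codon, with folds of 6.08 in replicate 1 and 5.67 in replicate 2, 9 and 12 reads (adjusted p = 0.786, exact binomial test) and summits 122 and 113 nt after the last coding base. The 9 reads are the lowest number under a member peak. Replicate 2 had a further peak of fold 7.91 and 19 reads over the start codon and codons 1 to 175. No peak overlapped CDX1 (chr5:150166778-150184558, plus strand), and the nearest listed peaks were 72131 and 72424 bp away. The lists hold only peaks past the caller's threshold, with a lowest −log10 q-value of 2.18 and 2.15, and do not show how many reads CDX1 had. The summit of the CDX2 pair in replicate 1, in 30 nt of 3′ UTR on the gene strand, is printed as the site with the fewest reads. This stretch has no GGAC or CACA, while the full windows of 101 nt hold CACA once in both replicates, 22 and 13 nt before the summit.
CDX2, replicate 1, chr13:27962982-27963011: atagacctacagacctggctctcagaggaa

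Several members had a peak over the stop codon in both replicates. The last codon of the canonical transcript was covered in this way in KLF5, GATA4, GATA6 and HNF4A. These are 4 of 9 genes, against 8.98% of all protein-coding genes. Among protein-coding genes with an overlapping pair the share was 29.4%, to be set beside 4 of the 8 members with such a pair. In replicate 1 alone the count was 6 of 9 genes, with ELF3 and SOX9 added, against a share of 14%, and in replicate 2 it was 4 of 9 genes against 12.6%. Distance to a stop codon was taken on the spliced mRNA as the smallest over all transcripts of a gene. By this distance, 2 of 14 exonic summits in replicate 1 (14.3%) and 4 of 16 in replicate 2 (25%) were within 200 nt. Over all exonic summits these shares were 27.2% and 25.4%. On the canonical transcript alone, the member shares were 14.3% and 18.75%, and the share over all summits was not computed. By the midpoint of the peak in place of its summit, over all transcripts, the member shares were 35.3% and 31.2%. The share of all peaks was not computed by midpoint, so these 35.3% and 31.2% have no background beside them.

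Start codons were covered in more members in replicate 2 than in replicate 1. Peaks of replicate 2 covered the start codon of KLF5, GATA6, EHF, SOX9 and CDX2, 5 of 9 genes, and peaks of replicate 1 covered that of SOX9 only. Over all protein-coding genes the share was 13.8% in replicate 2 and 8.99% in replicate 1, and 6.6% had their start codon covered in both. The difference between the replicates in the 9 genes was not tested. The 5′ UTR held 12.03% of all summits in replicate 2 and 6.68% in replicate 1, a difference in the same direction over the whole lists.

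The summits of member peaks were in the 3′ UTR for 9 of 19 peaks in replicate 1 (47.4%, 95% Wilson interval 27.3 to 68.3) and 6 of 21 in replicate 2 (28.6%, 13.8 to 49.96). Over all peaks, 22.3% and 18.2% of summits were in a 3′ UTR. All peaks include those on non-coding genes, and 10.6% and 9.84% of their summits were in non-coding exons, against 0% for the members. The sets are therefore not alike. Coding sequence held 4 of 19 and 8 of 21 member summits (21.1% and 38.1%), against 29.1% and 29.9% over all peaks. The share over all peaks was outside the member interval only for the 3′ UTR in replicate 1, and inside it in replicate 2. The intervals treat peaks of the same gene as independent, so this describes the peaks and is not a test. Introns held 5 of 19 and 4 of 21 member summits (26.3% and 19.05%), against 26.6% and 24.5% over all peaks. Each of these 9 member summits lay 11 to 184 nt before an exon that its peak reached. By the midpoint of the peak, 10.5% of member peaks of replicate 1 were intronic in place of 26.3%, and 19.05% in both cases in replicate 2. Over all protein-coding genes, 80.6% of peaks with an intronic summit reached an exon in replicate 1 and 81.7% in replicate 2. No member peak was confined to an intron.

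**Figure D3:**
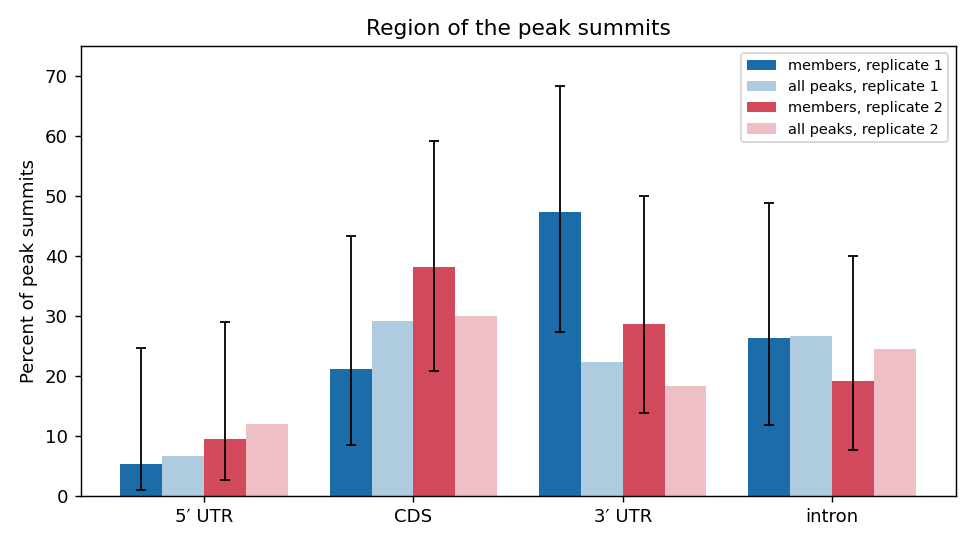
Percent of peak summits in 5′ UTR, coding sequence (CDS), 3′ UTR and intron, for the 19 and 21 member peaks (dark bars, with 95% Wilson intervals) and for all peaks (pale bars) of replicates 1 (blue) and 2 (red). The 3′ UTR holds 47.4% and 28.6% of member summits against 22.3% and 18.2% of all summits.

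Member peaks ranked high by reads and low by fold. The median of summit reads was 44 in replicate 1 and 35 in replicate 2, against 22 over all peaks of each list. The median fold was 6.04 and 6.56, below the medians of 6.89 and 7.13 over all peaks, and 13 member peaks in each replicate lay below the median of their list. The median local background was 5.63 and 5.14 reads, against 2.05 and 1.79. As within-list percentiles, the member medians were 33.5 and 38.5 by fold and 81.9 and 72.6 by reads. The genes divided by this measure. The exon 1 and exon 4 pairs of KLF5 and the stop codon pair of GATA6 were above the median by both measures in both replicates, SOX9 and ELF3 were high by reads and low by fold, and the peaks of GATA4 were below the median by both. As reads at a summit are not scaled to mRNA level, these ranks are not an order of binding strength between genes.

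**Figure D4:**
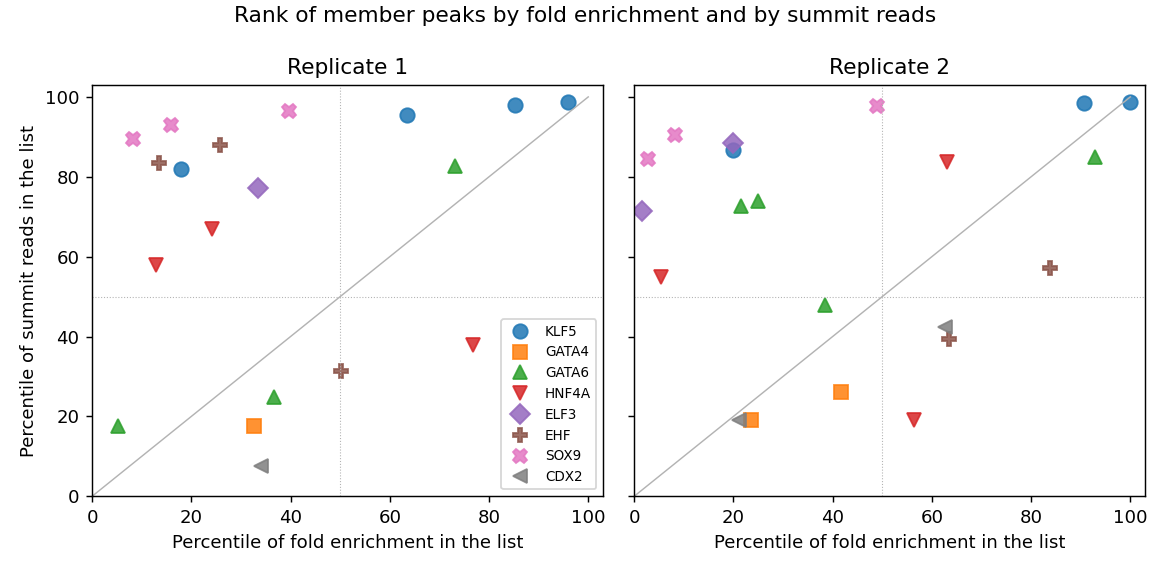
Percentile of each member peak within its list by fold enrichment (horizontal axis) and by summit reads (vertical axis), with 1 panel per replicate and 1 symbol per gene. Grey lines mark equal percentiles and dotted lines the medians. Most peaks lie above the grey line, with SOX9 at the upper left, and GATA4 and CDX2 lie in the lower part. The points farthest to the upper right are those of KLF5.

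Between the replicates, 2 of the 14 pairs differed in summit reads at an adjusted p-value below 0.05, against 12.4% of all 12401 pairs, of which 754 were higher in replicate 1 and 786 in replicate 2. These were the exon 2 pair of KLF5, lower in replicate 2, and the exon 2 pair of GATA6, higher in replicate 2. Both have summits more than 100 bp apart, so the reads compared are those of 2 places under overlapping peaks. Of the 7 pairs with summits within 50 bp, 0 differed after adjustment, against 12.7% of all 7120 such pairs, and 1, the KLF5 exon 1 pair, had an unadjusted p-value below 0.05 (0.0135, exact binomial test).

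**Figure D5:**
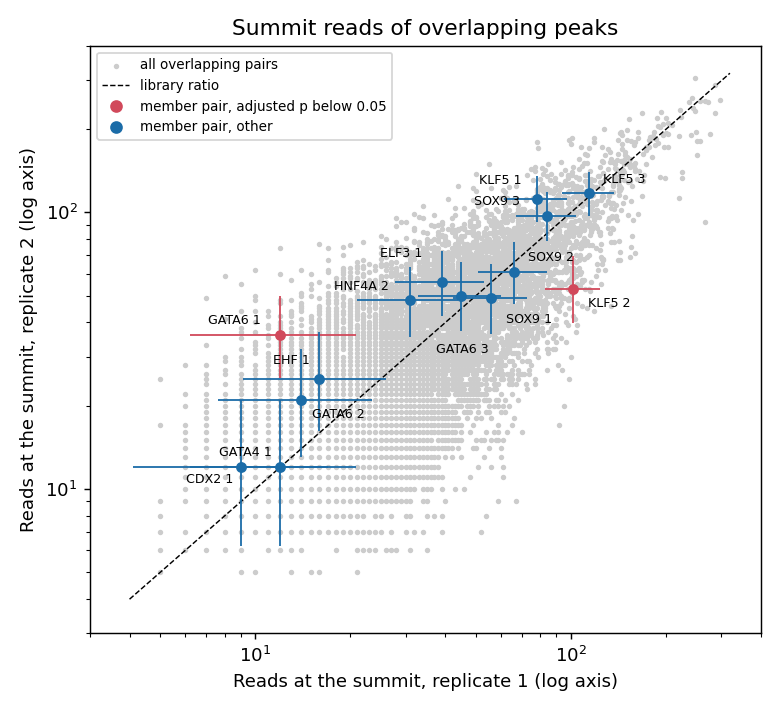
Reads at the summit in replicate 1 (horizontal, log axis) and replicate 2 (vertical, log axis) for the 14 member pairs, with exact 95% Poisson intervals, over all 12401 overlapping pairs in grey. Labels give the gene and the number of its peak in replicate 1. The dashed line, labelled library ratio, is the ratio of summit reads summed over all 12401 pairs. The red points, KLF5 (102 and 53 reads) and GATA6 (12 and 36 reads), are the pairs that differed.

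Windows of 101 nt around the member summits held GGAC in 5 of 19 peaks of replicate 1 (26.3%) and 10 of 21 of replicate 2 (47.6%), against 29.1% and 32.0% of the windows of all peaks placed on a gene. TGGAC, the longer form that contains GGAC, was in 1 of 19 and 5 of 21 (5.26% and 23.8%, against 10.1% and 10.2%). CACA was in 7 of 19 and 5 of 21 (36.8% and 23.8%, against 37.2% and 34.3%). The motifs were searched on the gene strand only. In replicate 1 the GGAC and CACA shares were close to those of all peaks, and TGGAC was below its share, on 1 window. In replicate 2 GGAC and TGGAC were above the share of all peaks and CACA was below it. No interval or test was computed for these counts. The median GC content of the member windows was 54.5% in replicate 1 and 62.4% in replicate 2, against 49.5% and 56.4% for all windows. The 31 nt around each of the 40 member summits occur once in hg38 as an exact match. Inexact copies and the rest of each peak were not searched.

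The members were set beside their closest relatives. Of 45 paralogs from the KLF, GATA, HNF4, ELF, SOX and CDX families, 17 had an overlapping pair (37.8%) and 23 had no peak, among them HNF4G, CDX4, GATA5, KLF2 and SOX2. The mRNA levels of these genes were not measured here, and the lists are described with no test between them. By the rule for named genes, the paralogs with the highest-ranked pairs were ELF1 (folds 12.9 and 14.3), KLF17 (19.95 and 13.7), SOX6 (13.4 and 12.8), GATA3 (12 and 12.6), KLF9 (11.45 and 11.55) and ELF2 (10.5 and 11.2). The peaks of KLF17, SOX6 and ELF2 in replicate 1 touched no exon of their gene, and the summits under KLF17 and ELF2 lie in annotated pseudogenes inside their introns. The pair of GATA3, a factor of T cells and of luminal breast epithelium, lay in coding sequence with 24 and 22 reads.

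Among 30 other transcription regulators of endoderm and epithelium, 17 had an overlapping pair (56.7%) and 6 had no peak. The highest-ranked were CREB3L1 (16.1 and 15.7), ONECUT2 (12.6 and 12.7), YAP1 (13.7 and 11.97), VDR (13.4 and 11.7), ID1 (10.2 and 11.2) and RXRA (10.0 and 11.1). Of 11 squamous factors, 3 had a pair (27.3%) and 7 had no peak, among them TP63, the master regulator of squamous epithelium, SOX2 and PAX9. Those with a pair included TFAP2A (9.19 and 12.3), whose summits lay in an antisense gene, and KLF4 (5.38 and 6.40).

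Another list held genes of columnar and intestinal epithelium, including general epithelial markers such as KRT8 and CDH1. Of these 24 columnar and intestinal genes, 17 had an overlapping pair (70.8%) and 5 had no peak (KRT20, CLDN18, FABP1, MUC2 and CFTR). The pairs with the highest ranks were in REG4 (folds 14.1 and 14.9), MUC13 (16.9 and 14.2), TFF1 (13.9 and 13.4), the intestinal cadherin CDH17 (12.4 and 12.9), KRT8 (9.81 and 13.4) and CDH1 (10.7 and 10.5). To compare the lists, the best pair of each gene was ranked by the lower of its within-list percentiles of fold. The median over genes with a pair was 31.9 for the members, 73.7 for the paralogs, 73.7 for the other endodermal and epithelial regulators, 74.6 for the columnar and intestinal genes, 20.9 for the squamous factors and 57.6 for all protein-coding genes with a pair. The paralog median includes KLF17, SOX6 and ELF2, whose replicate 1 peaks touch no exon, and the list of other regulators also holds such a pair. The medians were not recomputed without them. The number of pairs from which the best was taken differs between genes and was not adjusted for. The members had a pair in 8 of 9 genes (88.9%) and a median rank by fold below that of all genes, which only KLF5 (96.0) and GATA6 (73.2) exceeded among them. Over member peaks, the mean of the replicates' median percentiles was 36.0 by fold, 63.5 by −log10 q and 77.3 by summit reads, so the low rank holds by fold only. KLF4, SOX2 and SOX15 stand in both the paralog and the squamous list, and ELF3 is also among the epithelial markers. The columnar list shares 7 genes with the epithelial markers, all with a pair, and 10 of its other 17 genes had one.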

How the data were processed

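IGF2BP3 LACE-seq peaks of 2 OE-19 replicates were analysed, and no sample was left out. The members and gene lists were chosen with earlier results of these data known. Per the study's methods, reads left after removal of pre-rRNA were aligned to hg38 with Bowtie and peaks called with Piranha, whereas the submitters' processing notes name fastp, HISAT2 and MACS2, and the deposited lists have the layout MACS writes. Peaks were called per replicate, without strand. The authors deposited a fold enrichment (a ratio), p-values and q-values as −log10, and a score that was not used.

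The whole read number at each summit was recovered from fold and p-value under a Poisson form (1 solution for 21133 of 21142 and 20799 of 20799 peaks, and for every member peak). The reads per library are unknown. Intervals cover counting error only, and reads without molecular identifiers are not independent molecules. The Wilson intervals treat peaks of the same gene as independent. Positions are 1-based, in GENCODE 44. A base was classed over all transcripts as CDS, 3′ UTR, 5′ UTR, non-coding exon or intron, in this order, and codons follow the canonical transcript.

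A gene was counted as having an overlapping pair when any of its peaks in the 2 lists shared at least 1 bp. For the test, each peak entered 1 pair at most, by the best mutual overlap. Summit reads of a pair were compared by a two-sided exact binomial test. The reference was the ratio of summit reads summed over all pairs, replicate 1 over replicate 2 (1.004). Benjamini-Hochberg adjustment was over 12401 pairs. The procedure was tested on simulated Poisson counts, with changes placed only in pairs with many reads. That simulation holds counting error only, so it does not show how the test behaves with other variation between replicates. Named genes were all members and, per list, up to 6 genes whose pair had the highest lower percentile of fold. A gene that this rule names is not reported here. Alternatives changed the peaks used, the overlap rule, the position of a peak, the windows, the ranking and the replicates. Python 3.11.15, pandas 2.3.3, scipy 1.17.1 and pysam 0.24.0 were used.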

Additional observations from a re-analysis of the deposited data

How the results depend on the processing

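Of 86 values recomputed under alternatives for 14 results, 69 stayed within the spread between replicates, their SD (for counts, within 1.5 times). These include values from a single replicate, which for shares and percentiles lie within that spread by construction. For overlapping pairs, the single-replicate value counts genes with any peak and is no check of the overlap. The count of 69 is therefore not a measure of robustness. With only the 10000 peaks of the largest −log10 q in each list, the genes with an overlapping pair fell from 8 to 5, the mean number of member peaks per replicate from 20 to 12, and the median percentile of fold was 41.2 in place of 36.0. That percentile was also 41.2 without peaks that lie under another gene, 63.5 when peaks were ranked by −log10 q and 77.3 when ranked by summit reads. The mean share of member peaks overlapping the other list, 70.2%, was 64.3% without peaks under another gene, 65.2% when 50% of both peaks had to be shared and 35.1% when summits had to lie within 50 bp. The mean share of exonic summits within 200 nt of a stop codon, 19.6%, was 33.3% by the midpoint of the peak, 9.82% within 100 nt and 42.9% within 400 nt. The number of pairs whose reads differed fell from 2 of 14 to 0 of 7 when summits had to lie within 50 bp, as both differing pairs have summits farther apart, while the share over all pairs was 12.4% and 12.7%. The mean intronic share of member summits, 22.7%, was 14.8% by the midpoint. With motif windows of 100 nt to each side, the mean member share with GGAC was 70.2% in place of 37.0%. It was 29.6% in place of 14.5% for TGGAC and 50.6% in place of 30.3% for CACA. GGAC was then in 73.7% of member windows in replicate 1 and 66.7% in replicate 2, the reverse of their order in the shorter windows. The shares over all peaks were not computed for these wider windows. In each replicate alone, the count of genes with a peak was 8, the member peaks 19 to 21, the median percentile 33.5 to 38.5, the overlap share 66.7% to 73.7% and the share near stop codons 14.3% to 25%. No paired analysis was possible because there is a single group. With 9 to 117 reads at a summit, the Poisson intervals of the weaker pairs are wide, and a gene without a peak is not shown to be unbound.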
